A study of Mus musculus with 26 samples.

Results

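Double positive (DP) cells recovered from the arch of the aorta were compared with DP cells of the thymus, the organ in which such cells form. The comparison takes the 4 deposited columns of aortic arch and the 4 of thymus, 8 of the 12 columns and 18 of the 26 libraries of the series. The other 4 columns, DP cells of mediastinal adipose tissue, a second site outside the thymus, are compared with the arch at the end of the results. All cells came from female C57BL/6J mice aged 8 weeks, and the labels name no mutant allele and no treatment for any group. Each column joins the libraries of 1 pool of tissue from 5 mice, so the pool is the replicate (n = 4 per tissue) and single mice cannot be read. Viable cells with CD4 and CD8b but no T-cell receptor on the surface were sorted, 400 at a time, and each library was made from lysate equal to 200 of them. P-values measure the spread between pools. Enzymatic digestion is stated for arch and adipose tissue and not for thymus, so site and tissue handling cannot be told apart in any difference from thymus.

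DP cells are the stage of T-cell development in which both coreceptors are present while the receptor alpha chain gene is being rearranged. The recombinase of Rag1 and Rag2 cuts receptor genes, Dntt adds nucleotides at the joins, and factors such as Satb1, Tcf7 and Bcl11b maintain the T lineage. Cells that receive a signal through the new receptor are selected, and those that receive none die. Heat shock proteins are chaperones that hold or refold proteins and are transcribed on proteotoxic stress through heat shock factors. Immediate early genes such as Fos and Nr4a1 are transcribed soon after a stimulus without new protein synthesis.

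Values are normalised read counts, the deposited unit, in which 1 read is worth 0.566 to 1.9 depending on the column. Recovered reads ranged from 13473516 to 34599519 over thymus pools and from 11577253 to 26551456 over arch pools, and 9091 to 10398 genes had at least 1 read in these 8 columns. Arch pools 2 and 4 and thymus pool 3 had the fewest reads per library. The label was checked against defining genes. Cd4, Cd8a, Cd8b1, Rag1 and Ptcra had reads in each arch pool, the lowest value being 1095 for Ptcra in arch pool 1. Markers of other cells were uneven among arch pools. The 12 fibroblast markers together reached 6681 CPM (reads of a gene relative to all reads of the column) in arch pool 4. The remaining arch pools ranged from 132.1 to 483 CPM and thymus from 88.92 to 298.4 CPM, with 7 of the 12 at 0 in all thymus pools. Without Gsn, the marker of highest mean, the sums were 9.19 to 4436 CPM over all arch pools and 0 to 3.834 CPM in thymus. Arch pool 2 held the most smooth muscle signal (1930 CPM over 8 markers, 6 of them at 0 in thymus) and the most macrophage signal (1587 CPM over 11 markers, 5 of them at 0 in thymus). Elsewhere in arch the sums were 0.5598 to 66.65 CPM for smooth muscle and 15.59 to 478.1 CPM for macrophages, against at most 3.308 and 59.13 CPM in thymus. The part of these cells in the results was not tested. Of the markers of 15 outside cell types that could be tested, limma called 2, both on the list of mature T cells and Klf2 among them. Only genes of at least 100 in at least 4 columns were tested. These were 3 of the 12 fibroblast, 1 of the 8 smooth muscle and 1 of the 11 macrophage markers. A marker high in 1 arch pool could hardly be called, so these calls do not show how many such cells were present. Counts and calls that changed most without arch pools 2 and 4 are given beside the results.

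Of 9106 genes tested, 598 (6.57%) were called between arch and thymus by limma at a Benjamini-Hochberg adjusted p under 0.05. The arch was higher for 363 (3.99%) and lower for 235 (2.58%). For 363 of the higher genes and 224 of the lower ones, the adipose mean lay on the arch side of the thymus mean. The same thymus pools serve both sides of this count, which favours such agreement, and the share over all tested genes was not counted. The count therefore cannot decide which differences from thymus are particular to the arch. The median log2 change of all tested genes was -0.20, and -0.06 in the edgeR fit. Among the called genes the typical size was similar either way, with a median log2 change of 1.90 for those higher and -2.08 for those lower. Calls differed in how firmly they held. Leaving out any 1 thymus pool left 114 to 143 lower calls and 286 to 306 higher ones. Without arch pool 1, 2, 3 or 4 there were 285, 176, 290 and 195 lower calls, and 300 to 344 higher ones. Lower calls thus became more numerous without arch pool 1 or 3 and fewer without arch pool 2 or 4. By edgeR 262 of the 363 higher genes and 85 of the 235 lower genes were called as well. Without arch pools 2 and 4, 201 of the 363 and 81 of the 235 stayed called. Of the 235 lower genes, 50 had 3 reads or fewer in both arch pools 2 and 4, and 5 of these 50 stayed called without those pools. In bulk samples, fewer cells of a type and less RNA per cell cannot be told apart.

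**Figure D1:**
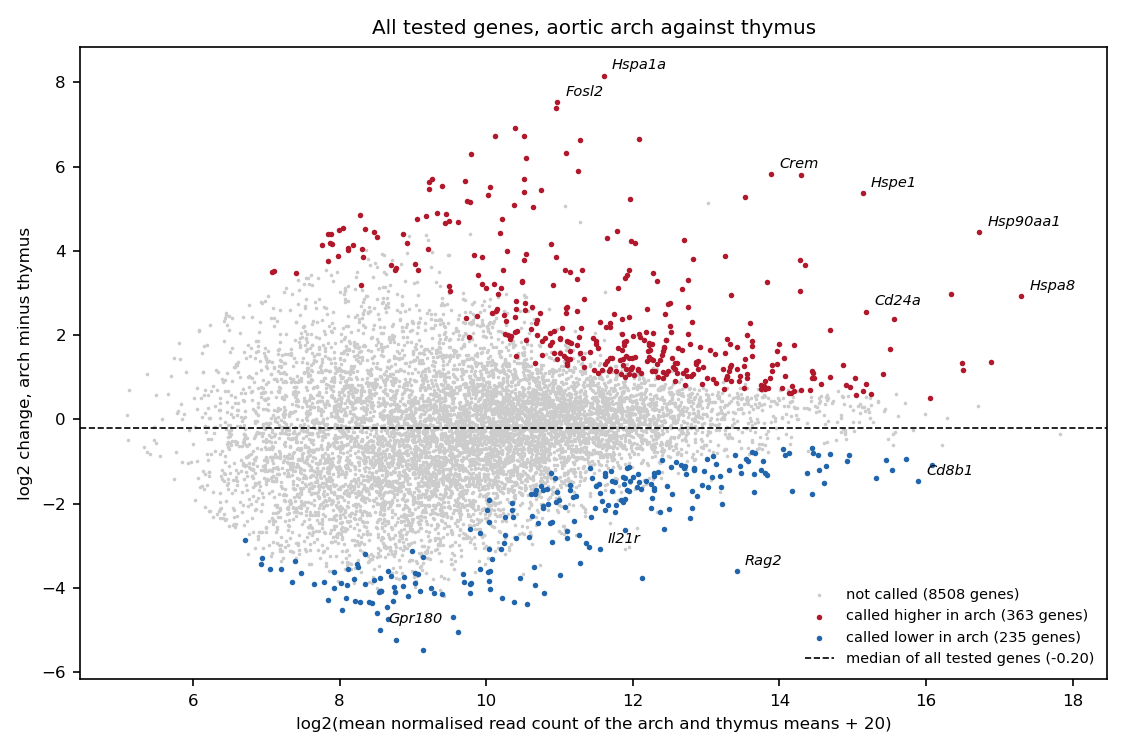
Log2 change of arch minus thymus (vertical axis) against the log2 mean level of both tissues (horizontal axis) for the 9106 tested genes, 1 point per gene. The 363 genes called higher in arch are red, the 235 called lower are blue, and the dashed line marks the median of all tested genes (-0.20). Hspa8 and Hsp90aa1 lie at the upper right, with high levels and a higher value in arch.

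Cytosolic chaperones of the Hsp70 and Hsp90 systems made up the largest share of calls among the lists of more than 20 tested members. Of 24 tested genes of this list, 11 rose and 0 fell, with a median log2 change of 1.10. For 11 of the 24 each arch pool lay above each thymus pool. Over all tested genes, 13.2% showed such a separation in one direction or the other. By edgeR 10 of the 24 were called higher, and without arch pools 2 and 4 the count was 9.

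Hsp90aa1, the stress-inducible cytosolic Hsp90, stood at 9379, 10355, 12085 and 6658 in thymus pools 1 to 4. In arch pools 1 to 4 it stood at 165229, 249295, 204351 and 206119. No arch pool came near the thymus range, and the log2 change was 4.44 ± 0.30 (SE, adjusted p = 3.39e-08). Hsp90ab1, the isoform also made without stress, ranged from 11277 to 28789 in thymus and from 127273 to 160123 in arch, a log2 change of 2.98 ± 0.31. Hspa8, the constitutive Hsp70 of the cytosol, was at 80357, 38339, 26104 and 21172 in thymus and at 293470, 206834, 334238 and 285588 in arch. Thymus pool 1 was the highest of the thymus pools for Hspa8 and still lay below each arch pool (log2 change 2.93 ± 0.32, adjusted p = 1.07e-05).

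The inducible Hsp70 genes Hspa1a and Hspa1b had no read in any thymus pool. Hspa1a reached 3340, 9579, 4565 and 7202 in arch pools 1 to 4, which is at least 2290-fold higher than 3 reads in each thymus pool would give. Hspa1b reached 431, 1992, 335 and 1855, at least 428-fold higher. Both were higher in arch pools 2 and 4 than in pools 1 and 3. The limma call of Hspa1b was lost without pools 2 and 4 (adjusted p = 0.0979), while that of Hspa1a was kept (0.00127). Since the coding parts of these genes are nearly identical, reads may have been assigned to either.

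Cochaperones rose too. Hsph1, the nucleotide exchange factor that recharges Hsp70, was at 1522, 272, 990 and 519 in thymus and at 35550, 39138, 44532 and 37630 in arch. The arch pools were close to each other (SD 3839 at a mean of 39212), and the log2 change was 5.80 ± 0.42 (adjusted p = 7.93e-08). Fkbp4, an immunophilin that joins Hsp90 to steroid receptors, went from 1456 to 3839 in thymus to 10563 to 12709 in arch (2.31 ± 0.28). Ahsa1, which activates the ATPase of Hsp90, rose by 1.63 ± 0.31, Cacybp by 1.73 ± 0.32 and St13, which binds Hsp70, by 1.69 ± 0.38 (adjusted p = 0.0574 without arch pools 2 and 4). Bag2, which releases substrates from Hsp70, was at 0, 209, 0 and 165 in thymus and at 1985, 493, 1905 and 4580 in arch. Its limma adjusted p was 0.00577, and edgeR did not call it (0.116).

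J-domain proteins deliver unfolded substrates to Hsp70. Of 23 tested, 5 rose and 1 fell, and the list median was 0.16. Dnajc7 fell by 1.33, a call kept in 1 of the 8 fits that left out 1 pool. Dnaja1, a cytosolic member, was at 31467, 13202, 14352 and 8483 in thymus and at 70002, 90603, 92112 and 65060 in arch (2.39 ± 0.31, adjusted p = 6.68e-05). Dnajb6, which suppresses aggregation, ranged from 2065 to 6928 in thymus and from 19506 to 21613 in arch. Dnajb1 ranged from 5162 to 8622 and from 13391 to 23357, and Dnajb9, a J protein of the endoplasmic reticulum, had a log2 change of 2.18 ± 0.38.

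Among 14 mitochondrial chaperones and proteases only the 2 parts of the chaperonin were called. Hspd1 encodes the Hsp60 barrel and Hspe1 its Hsp10 lid. Hspd1 was at 4691, 2536, 4390 and 1477 in thymus and at 28363, 42014, 49774 and 34183 in arch (3.66 ± 0.35). Hspe1 was at 2339, 1126, 1342 and 1703 in thymus and at 35800, 100009, 58835 and 86798 in arch (5.37 ± 0.40, adjusted p = 8.58e-08). The other members were not called, and the median over all 14 was -0.13. Of 15 subunits of the cytosolic chaperonin TRiC and its partner prefoldin, Cct4 and Cct6a rose. Cct4 ranged from 3884 to 8013 in thymus and from 12670 to 15754 in arch (1.25 ± 0.24). Cct6a was called in 2 of the 8 fits that left out 1 pool. Of the 3 tested heat shock factor genes limma called 0 (1 at an unadjusted p under 0.05; edgeR and DESeq2 0), and Hsf1 had an adjusted p of 0.269, with pools that overlapped.

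Stretches from the promoters of called chaperone genes are shown because they hold the letters of the heat shock element, to which heat shock factors bind. Sequences are from RefSeq (GRCm38.p6), with 7389 of the 9106 tested genes matched by symbol, and each window holds 250 bases before and 50 after a start. The heat shock element core was searched as the letters GAANNTTC or TTCNNGAA, which are their own reverse complements, so that both strands are covered. Each stretch below has 30 bases 5′ to 3′ on the strand of its gene, with the matching bases in capitals.
Hspe1, plus strand, chr1:55088053-55088082: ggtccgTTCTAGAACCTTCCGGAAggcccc
Hspa1b, minus strand, chr17:34959324-34959353: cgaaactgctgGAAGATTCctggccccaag
Dnaja1, plus strand, chr4:40722333-40722362: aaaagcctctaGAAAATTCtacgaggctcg
Dnajb6, plus strand, chr5:29735843-29735872: cagctccgaGAATCTTCCGGAAcgctagac
Fkbp4, minus strand, chr6:128438789-128438818: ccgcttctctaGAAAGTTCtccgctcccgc

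Hspd1 and Hspe1 lie head to head on chromosome 1 (GENCODE M21: Hspd1 from 55077835 to 55088243 on the minus strand, Hspe1 from 55088132 to 55091307 on the plus strand). They share the first stretch, which holds 3 overlapping matches, with 71 bases between the nearest match and the RefSeq start of Hspe1. The window of Hspa1a holds the same 30 bases as that of Hspa1b, and in both 96 bases lie between the match and the RefSeq start. Of the 20 members of the cytosolic, J-domain, mitochondrial and TRiC lists that rose, 15 had a RefSeq window and 10 of these (66.7%) held the core. Hspd1, Hspe1, Hspa1a and Hspa1b are all among the 10, so a stretch held in common is counted for each gene. Of the 55 members that did not rise, 45 had a window and 8 (17.8%) held the core. The core was in 13.8% of the windows of all tested genes, in 20.2% of those called higher and in 14.6% of those called lower. These shares were not tested, and a match is a run of letters, not a measured binding site.

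**Figure D2:**
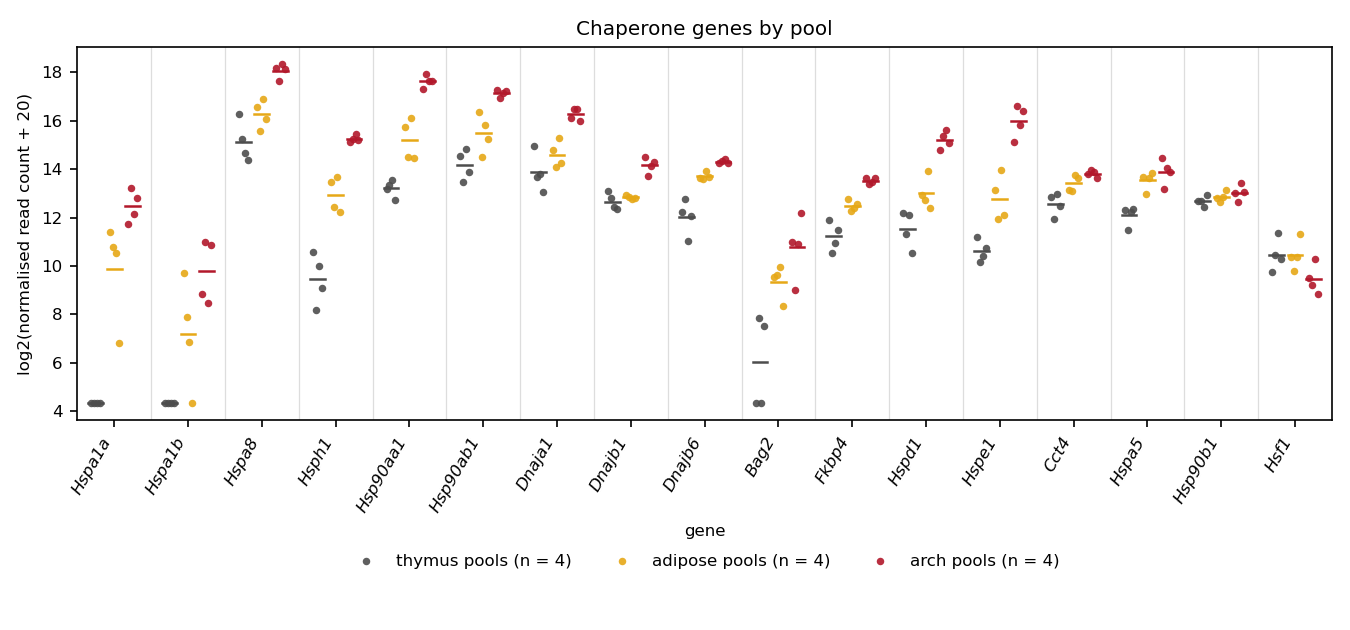
Levels of 16 chaperone genes and of Hsf1 by pool, as log2 of the normalised read count plus 20 (vertical axis). Points are pools (thymus grey, adipose tissue yellow, arch red; n = 4 each) and bars are means. Red points lie above all grey points for each gene from Hspa1a to Hspa5, while Hsp90b1 and Hsf1 overlap.

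Of 23 tested chaperone and stress genes of the endoplasmic reticulum 2 rose, Hspa5 and Herpud1, and 0 fell (median 0.60). That share of called members, 8.7%, is near the 6.57% of all tested genes. The call of Herpud1, which acts in protein export from this compartment, was kept in 3 of the 8 fits that left out 1 pool. Hspa5, the Hsp70 of this compartment, was at 5109, 2824, 4789 and 5261 in thymus and at 22690, 9338, 16925 and 15114 in arch (1.80 ± 0.28, adjusted p = 0.000508). Hsp90b1, the Hsp90 of the same compartment, was not called (0.33 ± 0.22). Of 14 genes of the integrated stress response, which slows translation when eIF2 is phosphorylated, 5 rose and 0 fell. Atf4, its central transcription factor, ranged from 916 to 2554 in thymus and from 5035 to 9092 in arch (1.95 ± 0.37). Ppp1r15a, the phosphatase subunit that ends the response, was at 681, 506, 0 and 985 in thymus and at 6084, 5821, 5505 and 5872 in arch. The arch pools of Ppp1r15a differed by little (SD 239), and thymus pool 3 stood at 0. limma called Ppp1r15a (adjusted p = 0.00315) and edgeR did not (0.0578).

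Of 12 ubiquitin and conjugating enzyme genes 4 rose and 0 fell, and without arch pools 2 and 4 the count was 3. Of 21 genes of the 19S regulator limma called 0 (2 at an unadjusted p under 0.05), edgeR 0 and DESeq2 1, and their median was -0.13. Of 17 genes of the 20S core the immunoproteasome subunit Psmb8 was called, which fell (adjusted p = 0.0031). That is 5.9% of the list, against 6.57% of all tested genes. Zfand2a, a heat-induced adaptor of the proteasome, went from 0 to 558 in thymus to 2720 to 6706 in arch. It was among the 16 largest increases by the naming rule, and edgeR did not call it (adjusted p = 0.0718).

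Of 30 antioxidant and iron genes 6 rose and 1 fell. Ftl1, the light chain of ferritin, ranged from 54004 to 60561 in thymus and from 108472 to 160952 in arch (1.18 ± 0.14). Prdx6, a peroxiredoxin, had a mean of 7421 ± 1689 in thymus and 25262 ± 2397 in arch (SD, n = 4). Hmox1, which degrades heme, had 1 read in thymus and was at 1091, 1921, 239 and 8545 in arch. Its level in arch pool 4 was more than 4 times that of the next pool, and without pools 2 and 4 the call was lost (adjusted p = 0.0504). Without those pools the list had 2 members called higher in place of 6.

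AP-1 genes, whose products pair as Fos and Jun dimers, were higher in arch with wide spread between pools. Of 11 tested members 4 rose and 0 fell. The median log2 change was 3.27, and per-pool medians above the thymus mean ran from 0.72 in arch pool 1 and 1.81 in pool 3 to 4.58 in pool 2 and 3.63 in pool 4. Fosl2 had 3 reads in all thymus pools together and was at 4434, 5412, 3739 and 2262 in arch, a ratio of means of 9330 (95% exact Poisson interval 3190 to 45300, counting error only). Junb was at 652, 187, 1154 and 1058 in thymus and at 13040, 15459, 10458 and 11110 in arch (4.26 ± 0.43, adjusted p = 4.24e-06). Fos was at 547, 223, 0 and 265 in thymus and at 2316, 7150, 2665 and 1797 in arch, with arch pool 2 above the rest. By edgeR neither Fos (adjusted p = 0.0687) nor Jun (0.274) was called, though 4 members were called in all. Fos (adjusted p = 0.0517) and Jun (0.246) were not called without arch pools 2 and 4, while Fosl2 and Junb were. The call of Jun, at 264, 1389, 273 and 390 in arch, was kept in 0 of the 8 fits that left out 1 pool.

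The Egr, Nr4a and Ier genes did not move as a block. Of 15 tested 3 rose: Nr4a1 and Nr4a2, orphan nuclear receptors induced by receptor signals, and Ier2. Nr4a1 was at 4498, 1996, 1.46 and 395 in thymus and at 35068, 13679, 19383 and 19562 in arch (5.28 ± 1.02, adjusted p = 0.00326). Its thymus pools differed widely, with pool 3 near 0, and edgeR did not call it (adjusted p = 0.0746). Nr4a2 was at 546 in thymus pool 1 and 0 in the others, against 6569, 2538, 5513 and 4627 in arch, also without an edgeR call (0.206). Ier2 was steadier, from 752 to 1930 in thymus and from 5881 to 8971 in arch (2.62 ± 0.32). Egr1, often read as a mark of receptor signalling, was at 7121, 5407, 2271 and 1990 in thymus and at 758, 2024, 526 and 1622 in arch. It was not called (log2 change -1.74 ± 0.81, adjusted p = 0.209).

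Dual-specificity phosphatases, which switch off MAP kinases, included 3 called members of 7 tested. Dusp1 was at 1289, 510, 1106 and 487 in thymus and at 10373, 6612, 10995 and 8172 in arch (3.48 ± 0.34, adjusted p = 2.36e-06). Dusp2 was at 3811, 3109, 3676 and 1536 in thymus and at 1780, 2011, 852 and 0 in arch, and was not called (adjusted p = 0.144). Among 14 Klf and Btg genes 5 rose and 1 fell. By edgeR 3 were called higher and 0 lower, and without arch pools 2 and 4 limma called 2 higher and 0 lower. Klf2, which drives genes of egress and quiescence, was at 80.9, 137, 0 and 86.6 in thymus and at 3652, 3057, 3172 and 3444 in arch (5.45 ± 0.89). Klf6 ranged from 706 to 1790 and from 4147 to 9943. The arch pools of Klf2 were even, pools 2 and 4 included. Of 17 AU-rich mRNA decay factors limma called 0 (1 at an unadjusted p under 0.05), edgeR 0 and DESeq2 1. Of 18 NF-kB subunits and targets the deubiquitinase gene Tnfaip3 rose (1.98 ± 0.32). That is 5.6% of the list, against 6.57% of all tested genes.

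Some genes of cAMP signalling rose in arch, while 18 of the 26 tested were not called. The second messenger cAMP releases protein kinase A from its regulatory subunits, the kinase phosphorylates CREB, and phosphodiesterases degrade cAMP. Of 26 tested members 8 rose and 0 fell, and 8 were called higher without arch pools 2 and 4 as well. The median of the list was 0.45. Crem, a CREB family factor, had the smallest p of all called genes. It was at 423, 446, 663 and 412 in thymus and at 23029, 47576, 23502 and 24993 in arch (5.83 ± 0.31, adjusted p = 1.65e-09). Arch pool 2 was the highest, and the other 3 arch pools were alike. Sik1, a kinase that feeds back on CREB coactivators, had between 0 and 4.53 in thymus and 3877, 3801, 2699 and 5249 in arch (7.39 ± 0.66). Gem, a small GTPase induced by CREB, had no thymus read and was at 1735, 2151, 1744 and 3080 in arch, at least 808-fold higher.

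Some phosphodiesterase genes rose beside these. Pde4d was at 1008, 675, 775 and 168 in thymus and at 9175, 9973, 5825 and 3853 in arch (3.56 ± 0.45). Pde3b rose by 3.27 ± 0.57 and Pde4b by 1.45 ± 0.27. Prkar1a, a regulatory subunit of protein kinase A, ranged from 7702 to 13328 in thymus and from 18451 to 27704 in arch (1.04 ± 0.23). Creb1 itself was not called (-0.74, adjusted p = 0.44). The full cAMP response element, the letters TGACGTCA, was in 4.17% of the windows of all tested genes. It was in 7.8% of those called higher (22 of 282) and in 2.16% of those called lower (4 of 185). Of the 8 members of the list that rose, 4 had a window and 1 held the element. It is shown because it is that single match, with the element in capitals.
Prkar1a, plus strand, chr11:109650889-109650918: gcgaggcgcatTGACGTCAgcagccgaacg
The AP-1 site, TGAGTCA or its reverse complement TGACTCA, was in 3.84% of all windows, 3.9% of those called higher and 6.49% of those called lower. The CArG box, the element of serum response factor, was in 1.3%, 1.77% and 2.16%.

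Glucocorticoid receptor targets and clock genes overlap with these lists. Of 14 glucocorticoid genes 5 rose and 1 fell (without arch pools 2 and 4, 4 and 0). Nr3c1, the receptor gene, ranged from 2073 to 3778 in thymus and from 5748 to 8832 in arch (1.31 ± 0.29), with an adjusted p of 0.102 without arch pools 2 and 4. Tsc22d3, a target known as GILZ, was at 15392, 13006, 8321 and 5283 in thymus and at 46294, 42932, 47490 and 33463 in arch (2.12 ± 0.26). Per1, which is both a clock gene and a target of the receptor and of CREB, was at 35.1, 0, 0 and 0.825 in thymus. In arch it was at 3906, 2507, 1642 and 3433 (6.72 ± 0.74, adjusted p = 1.08e-05). Of 13 clock genes Per1 and Nr1d2 rose, the latter without an edgeR call (adjusted p = 0.271), and the clock activators Arntl (0.23) and Clock (-0.93) were not called. The hour at which mice were killed was not given in the labels.

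**Figure D3:**
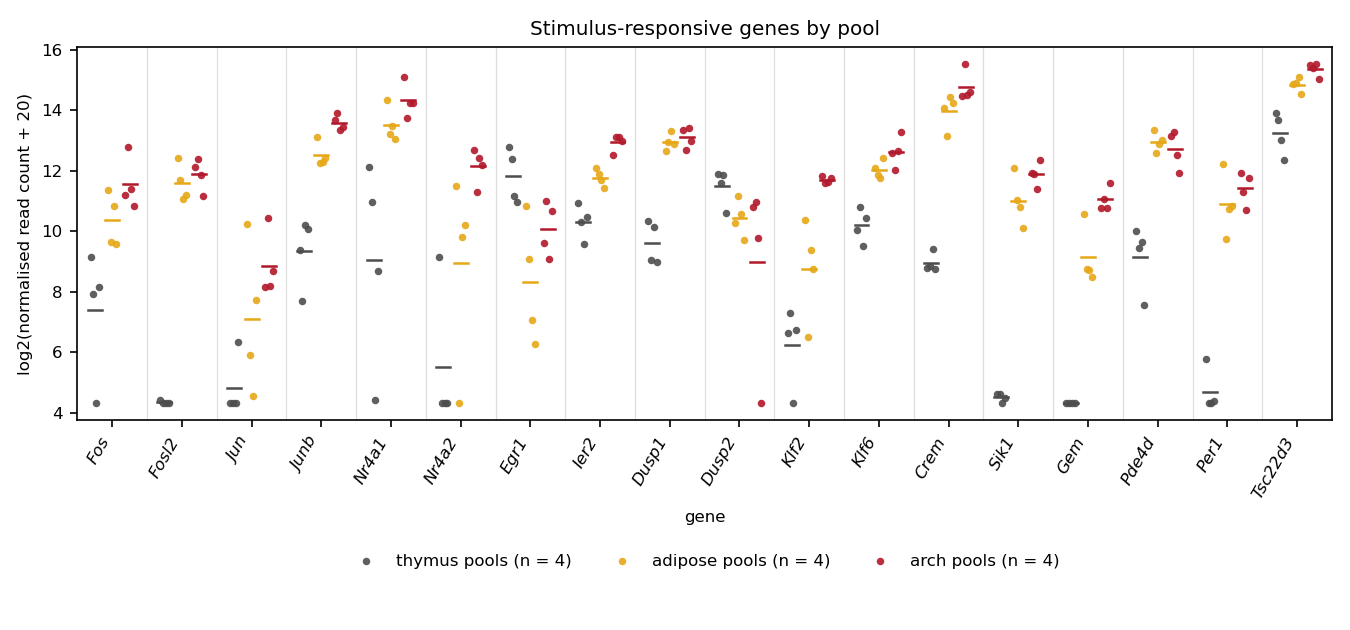
Levels of 18 stimulus-responsive genes by pool, as log2 of the normalised read count plus 20 (vertical axis). Points are pools (thymus grey, adipose tissue yellow, arch red; n = 4 each) and bars are means. Arch pools lie above thymus pools for each gene shown except Egr1 and Dusp2, whose arch means are lower and whose pools overlap.

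The coreceptor genes that define the sort were lower in arch. Of 16 coreceptor and receptor assembly genes 7 fell and 1 rose, with a median log2 change of -1.22. Per-pool medians were -1.13, -0.97, -1.25 and -0.93 in arch pools 1 to 4, with the smaller falls in pools 2 and 4. Cd8b1 was at 82329, 110228, 90858 and 75264 in thymus and at 34045, 28341, 34726 and 31829 in arch (-1.47 ± 0.23, adjusted p = 0.000398). Cd8a was at 81859, 113081, 89146 and 91082 in thymus and at 40833, 47616, 50132 and 38507 in arch (-1.08 ± 0.23). Its call was lost without arch pools 2 and 4 (adjusted p = 0.0633). Cd4 was at 16513, 16603, 16360 and 22768 in thymus and at 10233, 5746, 5191 and 9142 in arch (-1.30 ± 0.28). No arch pool reached the lowest thymus pool for any of the 3 genes, though all pools were sorted for the proteins of Cd4 and Cd8b1.

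Other surface genes of immature thymocytes went both ways. Thy1, a pan-T glycoprotein, ranged from 10280 to 14615 in thymus and from 3993 to 6260 in arch (-1.36 ± 0.29). Cd27, a costimulatory receptor, fell by 1.26 ± 0.23. Cd24a, whose protein marks immature thymocytes, was at 9545, 17282, 7865 and 9517 in thymus and at 70280, 76521, 57690 and 47789 in arch. It was the member of the list that rose (2.56 ± 0.23, adjusted p = 9.03e-07), and it is known also from other blood cell types.

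The 2 recombinase subunits differed in how they fared. Rag2 was at 20182, 25978, 13264 and 18615 in thymus and at 2219, 5572, 1146 and 393 in arch (-3.60 ± 0.60, adjusted p = 0.000851). Rag1 was at 11630, 10867, 25997 and 17075 in thymus and at 7703, 10413, 5289 and 8281 in arch, and did not pass (adjusted p = 0.0829). Whether the changes of Rag1 and Rag2 differ was not tested. Dntt was even among pools, from 63012 to 68705 in thymus and from 25411 to 32976 in arch (-1.19 ± 0.20). Ptcra, the alpha chain of the pre-receptor, ranged from 1677 to 2916 in thymus and from 1095 to 1348 in arch and was not called (adjusted p = 0.269). Of 17 genes of recombinase partners and end joining limma called 0 (5 at an unadjusted p under 0.05), edgeR 0 and DESeq2 2.

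Transcription factors of the T lineage that fell numbered 6 of 30, and 2 rose. Satb1, which organises chromatin in thymocytes, was at 52835, 54367, 61782 and 66735 in thymus and at 26129, 22155, 21914 and 20221 in arch. It had the smallest p of the genes that fell (-1.38 ± 0.14, adjusted p = 5.89e-06). Tcf7 ranged from 54323 to 68453 in thymus and from 25651 to 39681 in arch (-0.97 ± 0.15), and its partner Lef1 fell by 1.37 ± 0.31. Bcl11b, which commits progenitors to the T lineage, was at 4670, 4055, 8163 and 6787 in thymus and at 1806, 1480, 892 and 2300 in arch. Elf1, an ETS factor, ranged from 8747 to 9525 in thymus and from 1594 to 3347 in arch (-1.78 ± 0.27). The 2 that rose were the Notch target Hes1, at 409 in thymus pool 3 and 0 in the other thymus pools, and Id2, which blocks E proteins. Hes1 was at 1250, 1954, 1438 and 1603 in arch, and neither gene was called without arch pools 2 and 4 (adjusted p = 0.0598 for Hes1 and 0.0629 for Id2).

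Of 19 further genes known for high levels at the DP stage 8 fell and 0 rose, and all 19 had a log2 change below 0 (median -0.86). By edgeR 5 were called lower, and without arch pools 2 and 4 6 were. Rmnd5a, a subunit of a ubiquitin ligase, was at 24578, 23121, 36723 and 28424 in thymus and at 8666, 12170, 6946 and 7244 in arch (-1.70 ± 0.24). Spo11, best known for cutting DNA in meiosis, ranged from 2694 to 6799 in thymus and from 293 to 1014 in arch (-3.02 ± 0.55). Arpp21 fell by 1.10 ± 0.22. Themis, which sets receptor signal strength, did not pass (-0.86, adjusted p = 0.0808). Trib2 was at 5 or below in arch pools 2 and 4 and at 457 and 479 in pools 1 and 3, against 1178 to 2708 in thymus, and edgeR did not call it (adjusted p = 0.163).

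**Figure D4:**
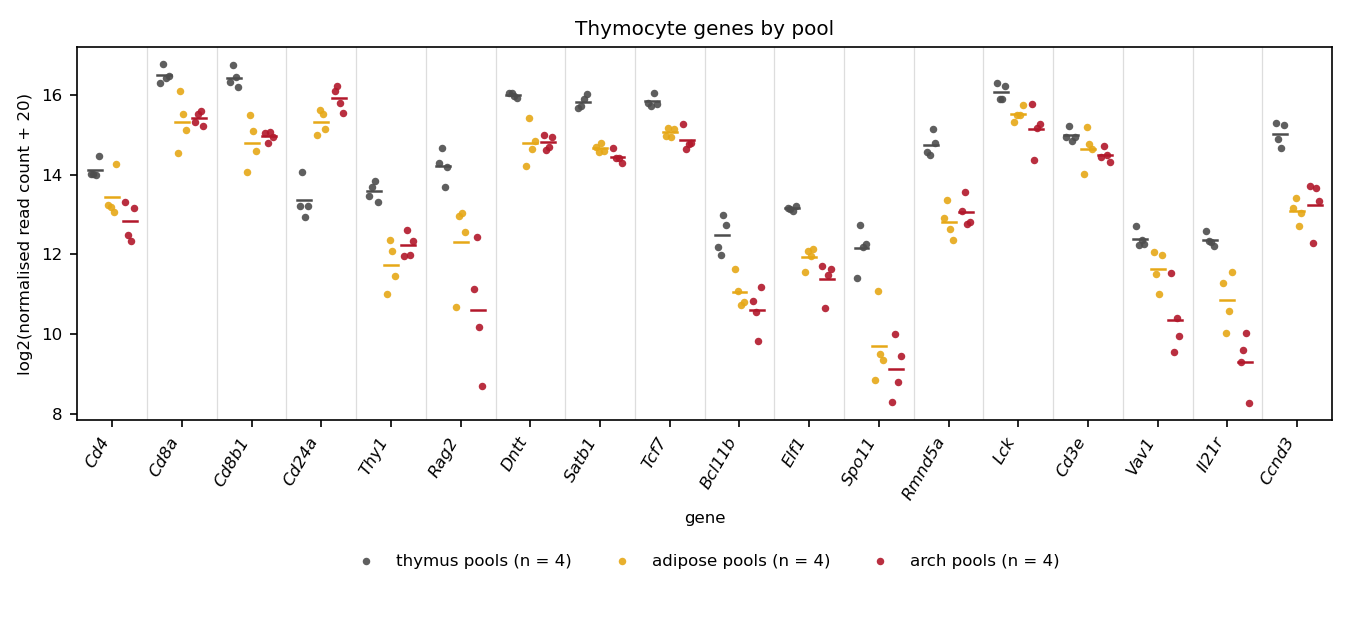
Levels of 18 thymocyte genes by pool, as log2 of the normalised read count plus 20 (vertical axis). Points are pools (thymus grey, adipose tissue yellow, arch red; n = 4 each) and bars are means. Cd24a is the gene shown whose arch pools lie above its thymus pools, and for the other 17 each arch pool lies below each thymus pool.

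Of 35 genes of the CD3 complex and of proximal receptor signalling 8 fell and 4 rose. The CD3 genes themselves were not called, and Cd3e was at 31588, 38118, 29710 and 31899 in thymus and at 22527, 27038, 23115 and 20644 in arch (adjusted p = 0.153). Lck, the kinase bound to the coreceptors, was at 80955, 61391, 61077 and 77162 in thymus and at 56055, 21190, 37186 and 39877 in arch (-0.93 ± 0.22). Arch pool 2 was the lowest for Lck, and the call was lost without pools 2 and 4 (adjusted p = 0.11). Vav1, a nucleotide exchange factor for Rac, ranged from 4808 to 6730 in thymus and from 727 to 2930 in arch (-2.04 ± 0.39). Sla, an adaptor that lowers receptor levels, fell by 1.21 ± 0.23 (adjusted p = 0.0596 without arch pools 2 and 4), while its relative Sla2 rose by 1.46 ± 0.18 (mean 9172 ± 1539 in thymus and 24976 ± 1422 in arch, SD, n = 4). Without arch pools 2 and 4, 2 members of the list were called lower and 1 higher.

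Cytokine receptor and JAK-STAT genes had 3 calls among 27 (11.1%, against 6.57% of all tested genes), 1 higher and 2 lower. The higher one was lost by edgeR and without arch pools 2 and 4. Il21r, the receptor of interleukin 21, was at 6096, 5205, 5047 and 4764 in thymus and at 606, 753, 1027 and 288 in arch (-3.07 ± 0.44, adjusted p = 0.000202). Tyk2, a Janus kinase of interferon receptors, was at 508, 860, 1079 and 882 in thymus and at 0, 1.9, 5.65 and 0 in arch (-5.24 ± 0.92). All arch pools were near 0 for Tyk2, and it was called by edgeR and without arch pools 2 and 4. Of 21 interferon-stimulated genes limma called 0 (4 at an unadjusted p under 0.05), edgeR 0 and DESeq2 2, with a median of -1.23 whose pool medians ranged from -1.52 in arch pool 4 to 0.16 in arch pool 1.

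Of 19 trafficking and adhesion genes 5 fell and 1 rose, while edgeR, and limma without arch pools 2 and 4, each called 2 lower and 1 higher. Icam2, an adhesion molecule, fell by 1.67 ± 0.39, and its call was lost without arch pools 2 and 4 (0.0828). Selplg, the ligand of selectins, rose by 0.98 ± 0.22. Of 42 actin genes 6 fell and 2 rose, with 4 lower by edgeR and 3 lower without arch pools 2 and 4. Coro1a, an actin regulator of lymphocytes, went from a mean of 36184 ± 4651 to 13506 ± 5380 and Pfn1, profilin, from 40684 ± 4815 to 22652 ± 3945. Actg1, gamma actin, went from 67875 ± 19615 to 174034 ± 44698 (SD, n = 4), while Actb was not called (-0.34, adjusted p = 0.167). Reads of these 2 actin genes can be hard to tell apart.

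Of 10 tubulin genes 2 rose, both of the beta 2 class. Tubb2a was at 1438, 1940, 2344 and 4375 in thymus and at 20038, 18862, 15348 and 18590 in arch (2.96 ± 0.27, adjusted p = 1.06e-06), and Tubb2b had a log2 change of 2.58 ± 0.55 (adjusted p = 0.1 without arch pools 2 and 4). The alpha tubulin gene Tuba1b was level (0.03).

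Among 14 Bcl2 family genes 2 rose and 1 fell, and by edgeR or without arch pools 2 and 4 1 was higher and 1 lower. Bcl2l11 encodes Bim, which promotes death of thymocytes. It was at 2756, 1681, 377 and 1141 in thymus and at 23305, 15042, 19166 and 14708 in arch (3.87 ± 0.40, adjusted p = 5.89e-06). Pmaip1, the gene of Noxa, was at 50.9, 200, 0 and 0 in thymus and at 1069, 1269, 1780 and 1006 in arch, and edgeR did not call it (adjusted p = 0.204). Bcl2l1 encodes Bcl-xL, which keeps DP cells alive. It was at 5132, 5704, 5324 and 7192 in thymus and at 2380, 774, 1739 and 1469 in arch (-1.96 ± 0.34, adjusted p = 0.00146). Of 17 caspase and death receptor genes Tradd was called lower, a call kept in 1 of the 8 fits that left out 1 pool. The share called, 5.9%, was near the 6.57% of all tested genes.

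Of 37 S phase genes 2 rose and 0 fell, and of 39 G2 and M phase genes 0 rose and 1 fell, with medians of 0.13 and -0.18. The shares called, 5.4% and 2.6%, were no larger than the 6.57% of all tested genes. By edgeR, and without arch pools 2 and 4, 1 S phase gene and 0 G2 and M phase genes were called. None of the 3 limma calls was kept in all 8 fits that left out 1 pool. Ccnd3, the D cyclin that DP cells depend on, was at 40730, 30679, 26355 and 38748 in thymus and at 13456, 5020, 12977 and 10342 in arch (-1.78 ± 0.27, adjusted p = 0.000369). The inhibitors Cdkn1a (5.33 ± 1.00) and Cdkn1b (1.31 ± 0.28) rose. Cdkn1a was not called by edgeR (adjusted p = 0.0706) and Cdkn1b was not called without arch pools 2 and 4 (0.0562).

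Of 11 polyamine genes 3 rose, and 2 by edgeR or without arch pools 2 and 4. Odc1, the first enzyme of the pathway, was at 753, 743, 712 and 1744 in thymus and at 16305, 10900, 16006 and 10523 in arch (3.82 ± 0.32, adjusted p = 4.64e-07). Cholesterol synthesis had 3 called members of 27 (11.1%, against 6.57% of all tested genes), led by the sterol sensor Insig1 (3.55 ± 0.54). Fatty acid genes had 3 higher and 2 lower of 26, with Plin2, the coat of lipid droplets, at 2050 ± 974 in thymus and 9502 ± 3901 in arch (SD, n = 4). Of 23 glycolysis genes Tpi1 rose (adjusted p = 0.0767 without arch pools 2 and 4) and Ldhb fell. Of 36 genes of respiratory complex I 1 fell, a call that was lost without arch pools 2 and 4. The shares called, 8.7% for glycolysis and 2.8% for complex I, were near or below the 6.57% of all tested genes. Of 25 genes of complexes II to IV limma called 0 (6 at an unadjusted p under 0.05), edgeR 0 and DESeq2 3. Of 16 ATP synthase genes limma called 0 (1 at an unadjusted p under 0.05), edgeR 0 and DESeq2 1.

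Ribosomal protein genes were slightly higher in arch, unevenly over pools. All 45 large subunit and all 34 small subunit genes had a log2 change above 0, with medians of 0.51 and 0.46, and 8 and 3 of them rose. These were 17.8% and 8.8% of the lists, against 6.57% of all tested genes. Medians of the large subunit were 0.69 and 0.86 in arch pools 2 and 4 and 0.35 and 0.12 in pools 1 and 3. Without pools 2 and 4, 1 large subunit gene and 0 small subunit genes were called (edgeR with all pools called 6 and 1). Rpl15 kept its call (0.84 ± 0.15, adjusted p = 0.0494 without these pools). Reads of ribosomal protein genes can be shared with processed pseudogenes. Eif1, which selects start codons, was steadier, from 26342 to 30023 in thymus and from 56659 to 61808 in arch (1.07 ± 0.13, adjusted p = 2.6e-05).

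Other genes stood out by p or by size of change. Hist3h2a, a histone H2A gene with polyadenylated transcripts, was at 3671, 4816, 4853 and 3828 in thymus and at 34840, 37728, 34922 and 34015 in arch (3.05 ± 0.20, adjusted p = 3.39e-08). Rnf125, a ubiquitin ligase, was at 245, 258, 488 and 594 in thymus and at 6654, 11208, 7639 and 4969 in arch (4.23 ± 0.35). Gramd3 ranged from 1829 to 3515 and from 14497 to 33901 (3.27 ± 0.28), and Morf4l2, of a chromatin complex, had means of 2917 ± 1510 and 36873 ± 3166 (SD, n = 4). For all 4 genes the lowest arch pool was well above the highest thymus pool. Snx18, a sorting nexin of endocytosis and autophagy, was at 0.566, 266, 17.5 and 212 in thymus and at 7901, 8337, 9349 and 8358 in arch (6.65 ± 0.65). Mpzl2, an adhesion molecule first described in thymus epithelium, had no thymus read and was at 1222, 850, 2794 and 2090 in arch, at least 645-fold higher. Sgip1, of endocytosis, had 1 thymus read and was at 3178, 3694, 1323 and 2363 in arch.

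Among genes that fell, Slc16a5, a monocarboxylate transporter family gene, was at 10716, 14627, 10642 and 10386 in thymus and at 3125, 2711, 2468 and 2466 in arch (-2.09 ± 0.27, adjusted p = 7.15e-05). Arhgap4, a GTPase activator, ranged from 3526 to 4237 and from 403 to 651 (-2.82 ± 0.44). Fam189b was at 7625, 8114, 10264 and 11498 in thymus and at 1612, 2395, 1756 and 765 in arch (-2.60 ± 0.34). The falls of Slc16a5 and Arhgap4 were even over arch pools, while Fam189b was lowest in arch pool 4. All 3 were called by edgeR. The genes that fell most by log2 change were of another kind, with arch pools at or near 0. Slc39a6, a zinc transporter, was at 1797, 1313, 1371 and 1286 in thymus and at 3.26, 0, 377 and 0 in arch, so that arch pool 3 stood apart, and edgeR did not call it (adjusted p = 0.229). Gpr180 was at 549, 1273, 568 and 447 in thymus and at 4.07, 0, 0.808 and 0 in arch (-4.99 ± 0.89), and edgeR called it (0.00139).

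Set directly against the DP cells of mediastinal adipose tissue, the arch differed in few genes. Enzymatic digestion is stated for both of these tissues, and the part of tissue handling was not tested. There limma called 16 of the 9106 (0.176%), 9 higher and 7 lower in arch. These 16 are named because they are few, after their values were seen. The 9 higher ones were Id3 and 8 chaperone genes: Hsp90aa1, Hsp90ab1, Hspa8, Hsph1, Dnaja1, Dnajb1, Hspd1 and Hspe1. By edgeR 4 of these 9 were called higher as well. In adipose pools 1 to 4 Hspe1 was at 9101, 3899, 15760 and 4336, between the thymus and arch pools (arch minus adipose 3.22 ± 0.40, adjusted p = 0.000813). Hsp90aa1 was at 54451, 23030, 70353 and 22512 in adipose pools (2.44 ± 0.30, adjusted p = 0.000813). Id3, an inhibitor of E proteins induced by receptor signals, was at 5466, 3416, 4139 and 2553 in adipose pools and at 8194, 18497, 13341 and 17552 in arch (1.87 ± 0.29). In thymus Id3 ranged from 7813 to 12970, overlapping the arch, and was not called there (adjusted p = 0.293).

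The 7 genes lower in arch than in adipose tissue were Bambi-ps1, Dgat1, Gpr180, Ndrg3, Neil1, Selplg and Txk. Gpr180 was at 1033, 1284, 392 and 484 in adipose pools, in the range of thymus, and near 0 in arch (-5.11 ± 0.89, adjusted p = 0.0236). Ndrg3 was at 6090, 6529, 4532 and 7493 in adipose pools, 5684, 5355, 5395 and 5117 in thymus, and 2586, 2245, 2574 and 2380 in arch. Gpr180 and Ndrg3 were therefore below both other tissues in each arch pool. Dgat1, which makes triglycerides, was at 12188, 6765, 8201 and 14807 in adipose pools, 890 to 1760 in thymus and 1282 to 3839 in arch. Selplg, called higher in arch than in thymus, was higher still in adipose pools (47709, 81426, 65282 and 75747, against 21789 to 40470 in arch). By edgeR 8 of the 16 were called, 4 higher and 4 lower in arch. Without arch pools 2 and 4 limma called 0 genes between arch and adipose tissue, with 526 at an unadjusted p under 0.05.

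Crem (0.80 ± 0.31, adjusted p = 0.41), Dusp1 (0.15 ± 0.34, 0.905), Bcl2l11 (-0.22 ± 0.40, 0.879), Satb1 (-0.21 ± 0.14, 0.632) and Cd8b1 (0.16 ± 0.23, 0.84) were not called between arch and adipose tissue, which does not show that the tissues are alike. In adipose pools 1 to 4 Crem was at 17213, 9139, 22415 and 19562, and Satb1 at 26714, 24247, 28571 and 24945.

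**Figure D5:**
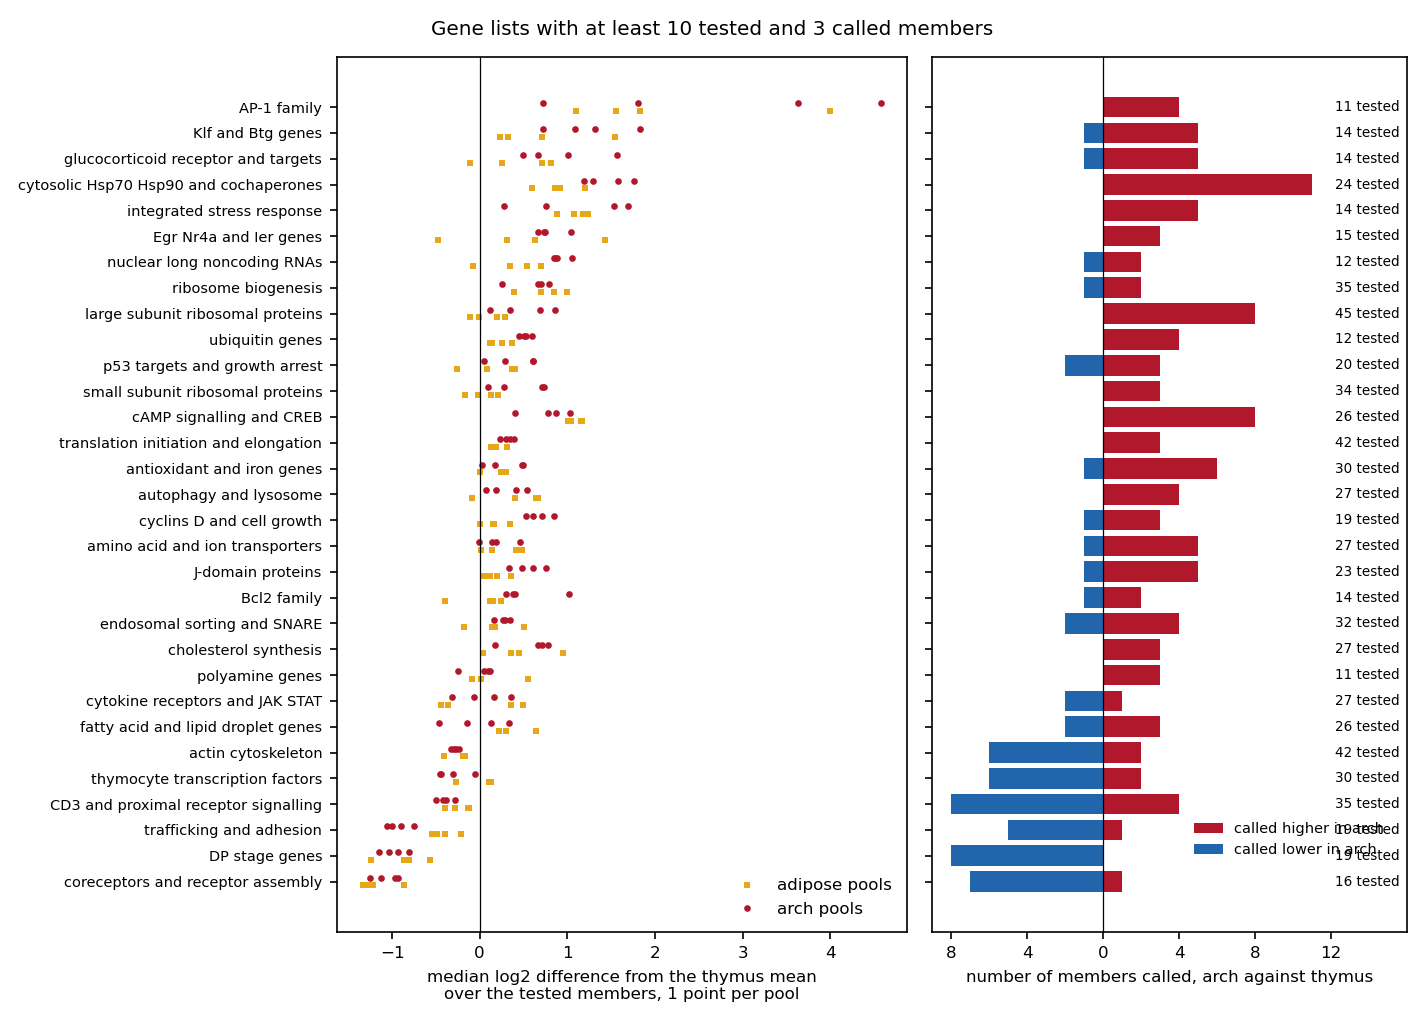
Gene lists with at least 10 tested and 3 called members, ordered by the median log2 change. On the left, each point is the median difference of 1 pool from the thymus mean in log2 units (arch red circles, adipose tissue yellow squares), and on the right bars give the number of members called higher (red) or lower (blue) in arch against thymus. AP-1 genes, with arch pools from 0.72 to 4.58, are spread widest, and coreceptor genes lie between -1.25 and -0.93.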

How the data were processed

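For 13765 genes, the table deposited by the authors gives a signal in each of 12 columns: reads of the libraries of 1 pool, divided by 1 factor per column, as the values show. All values above 0 (100%) were whole multiples, within 0.01, of the column's smallest value, which gave recovered reads. Per the submitters' processing notes, FastQC 0.11.5, STAR 2.6.0c and GRCm38 were used. The read counter is not given in the sources used here, nor is its annotation. Since the unit is not a raw count, limma 3.58.1 (R 4.3.3, intensity trend) on log2(value + 20) was the main test. It used genes of at least 100 in at least 4 columns, all 12 columns and tissue as the only term, and called genes at an adjusted p under 0.05. Errors are SE for log2 changes, which the pseudocount lowers for weak genes, and SD over 4 pools for means. Alternatives were edgeR 4.0.16 and DESeq2 1.42.0 on recovered reads, other pseudocounts, filters and scaling, and pools left out. Scripts were tested on simulated data.

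Floors (3 reads per pool) and exact 95% Poisson intervals cover counting error only, since cDNA was amplified over 18 cycles and the labels name no molecular identifiers. Mitochondrial transcripts and receptor constant genes are not reported here. The comparison, the 62 gene lists and the naming rule were chosen with earlier results of these data known. The rule names, per direction, called genes other than predicted genes, pseudogenes and receptor segments: the 16 of largest change (no pool overlap, at least 10 CPM), 12 by p and 12 by level, and per list up to 4 called and 2 first members. Named outside the rule, after their values were seen, were Ahsa1, Cacybp, Cd27, Dnajb1, Dnajc7, Fkbp4, Lef1, Pde3b, Pde4b, Prkar1a, Ptcra, Rag1, Sla, Sla2, St13 and the genes called against adipose tissue. List symbols were matched to older symbols through RefSeq for 28 genes.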

Additional observations from a re-analysis of the deposited data

Results flagged for a closer look

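Of 232 groups of 4 pools tested, 26 held a pool farther from the rest than Dixon's 95% critical value allows. Chance marks about 1 group in 20 for normally distributed values, which counts of few reads are not. Among genes, arch pool 2 was high for Fos (7150), Jun (1389) and Crem (47576), and arch pool 3 for Slc39a6 (377.1). Thymus pool 1 was high for Fosl2 (1.698), Nr4a2 (546.2), Per1 (35.1), Hmox1 (0.5661) and Slc39a6 (1797). Thymus pool 2 was high for Slc16a5 (14627) and Gpr180 (1273), and thymus pool 3 for Crem (662.7) and Sgip1 (1.457). Thymus pool 4 was high for Cd4 (22768) and Odc1 (1744), and its value of Jun was 61.04. The thymus values of Hmox1 and Sgip1 are 1 read each, and that of Fosl2 is 3 reads. For these genes and Nr4a2 the other thymus pools had no read. The test then marks a pool with any read, so it cannot decide whether that pool stands apart.

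Among lists, the median difference from the thymus mean stood apart in arch pool 2 for mitochondrial chaperones (-0.84) and the Bcl2 family (1.02). The same held in arch pool 3 for elongation and 7SK genes (0.51) and in arch pool 4 for nuclear long noncoding RNAs (1.06). Summed markers stood apart in arch pool 4 for fibroblasts (6681 CPM) and in arch pool 2 for smooth muscle (1930 CPM), neutrophils (38.7 CPM) and erythroid cells and platelets (147.3 CPM). In thymus they stood apart for gamma delta T cells in pool 1 (20.06 CPM) and adipocytes in pool 4 (12.83 CPM).

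The arch differed from adipose tissue by limma for 16 genes. Arch minus adipose log2 changes were 3.22 for Hspe1, 2.44 for Hsp90aa1, 2.31 for Hsph1, 2.20 for Hspd1, 1.87 for Id3, 1.79 for Hspa8, 1.67 for Hsp90ab1, 1.66 for Dnaja1 and 1.32 for Dnajb1. They were -5.11 for Gpr180, -2.30 for Neil1, -2.14 for Dgat1, -1.93 for Bambi-ps1, -1.57 for Txk, -1.30 for Ndrg3 and -1.17 for Selplg.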

How the results depend on the processing

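Between arch and thymus the 598 calls became 365 with edgeR (76.2% higher against 60.7%), 1007 with DESeq2, 308 without the 3 columns of fewest reads per library (71.8% higher) and 334 without arch pools 2 and 4. Leaving out 1 pool gave 404 to 620 calls, and the other settings 421 to 672. Between arch and adipose tissue the 16 calls became 9 with a pseudocount of 5, 2 with no filter, 8 with edgeR and 168 with DESeq2. They became 0 without the 3 columns (627 at an unadjusted p under 0.05) and 0 without arch pools 2 and 4 (526). Leaving out 1 pool gave 2 to 14, with 3 without arch pool 2, 5 without arch pool 4, 9 without adipose pool 3 and 2 without adipose pool 2 or 4. The cause was not tested. With pool number as a replicate block the counts were 608 and 12. Deviations of same-numbered arch and thymus pools correlated at 0.0353, 0.0459, -0.019 and -0.0217, and the labels do not state that same-numbered pools share mice, so the number was not taken as a pairing. No named gene called in the comparison reversed its direction under the settings run. Reads per library were fewest in arch pool 2, thymus pool 3 and arch pool 4, where a low gene at 0 cannot be told from an unsampled one, on either side of the comparison.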
